A study of Mus musculus with 12 samples.

Results

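The genes described here are *Srf* and those that work with it or respond to it: the coactivator genes *Mrtfa* and *Mrtfb* (once named *Mkl1* and *Mkl2*), the ETS factor genes *Elk1*, *Elk3* and *Elk4*, the adhesion gene *Vcl*, and the LIM-domain genes *Fhl1*, *Fhl2* and *Fhl3*. They were taken by symbol from the Ensembl identifiers of the count matrix, and all 10 were found among its 56980 genes. The study asked how PTH acts on W-20 cells, a murine bone marrow stromal cell (BMSC) line, and how this response depends on the tyrosine of the transcriptional coactivator YAP that Y428F removes. Bulk RNA-Seq was available for 12 libraries, 3 in each of 4 groups, with 17127897 to 19057319 counts per library.

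WT cells carried no introduced YAP and were exposed for 2 hours to vehicle (PBS) or to 50 nM PTH. Y428F cells, given the same vehicle or PTH for the same time, are a stable W-20 line made with a plasmid for Flag-tagged YAP in which that tyrosine is replaced by phenylalanine (Y428F), with positive clones selected in puromycin. The study's text names a serine-to-alanine substitution beside Y428F in the YAP of these cells, the library titles name Y428F alone, and the genotype entry of the Y428F libraries reads WT. No library of W-20 cells with an introduced YAP that retains the tyrosine was analysed here, so the substitution and any other difference between the lines cannot be told apart. Nothing in the labels says that the 3 libraries of a group came from separate cultures, so p-values measure only the spread between these libraries, which may be technical.

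SRF is a transcription factor that binds the CArG box, a short A/T-rich element. It works with either of 2 families of partners: the myocardin-related factors, which are held by monomeric actin and reach the nucleus when actin polymerizes, and the ELK (ternary complex) factors, which ERK phosphorylates. The former serve cytoskeletal and contractile genes, *Srf* and *Vcl* among them, and the latter serve immediate early genes. FHL proteins consist of LIM domains, bind actin-linked and nuclear partners, and include FHL2, itself a partner of SRF.

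*Srf*, *Vcl* and *Fhl1* rose strongly with PTH in both lines, by 3.17-, 2.58- and 3.68-fold in WT cells and by 2.34-, 1.91- and 2.90-fold in Y428F cells. *Fhl2* also rose in both, by 1.38- and 1.55-fold. Among the coactivator genes, *Mrtfb* passed the test in WT cells (log2 fold change 0.34) and *Mrtfa* in Y428F cells (0.38), and no ELK gene passed it in either line. Of the 10 genes, 5 were higher and 0 lower with PTH in each line at an adjusted p under 0.05 in edgeR's quasi-likelihood test, while 6.88% of all genes tested were higher and 4.91% lower in WT cells, and 6.61% and 5.78% in Y428F cells. At an unadjusted p under 0.05, and by DESeq2's Wald test, 0 of the 10 were lower in either line as well. Among only 10 genes a count of 0 lower is near those shares of all genes, so it is no result about these genes. The median log2 fold change of the 10 genes was 0.33 for WT and 0.31 for Y428F cells, against -0.01 over all genes tested in either line. When WT cells were fitted together with the Y428F libraries rather than alone, 8 of the 10 genes were higher with PTH in WT cells, the added ones being *Mrtfa* (log2 fold change 0.25), *Elk4* (0.32) and *Fhl3* (0.20). The WT shares of all genes above come from the fit of WT libraries alone. No such share is given here for the joint fit, so the count of 8 has no background beside it.

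**Figure D1:**
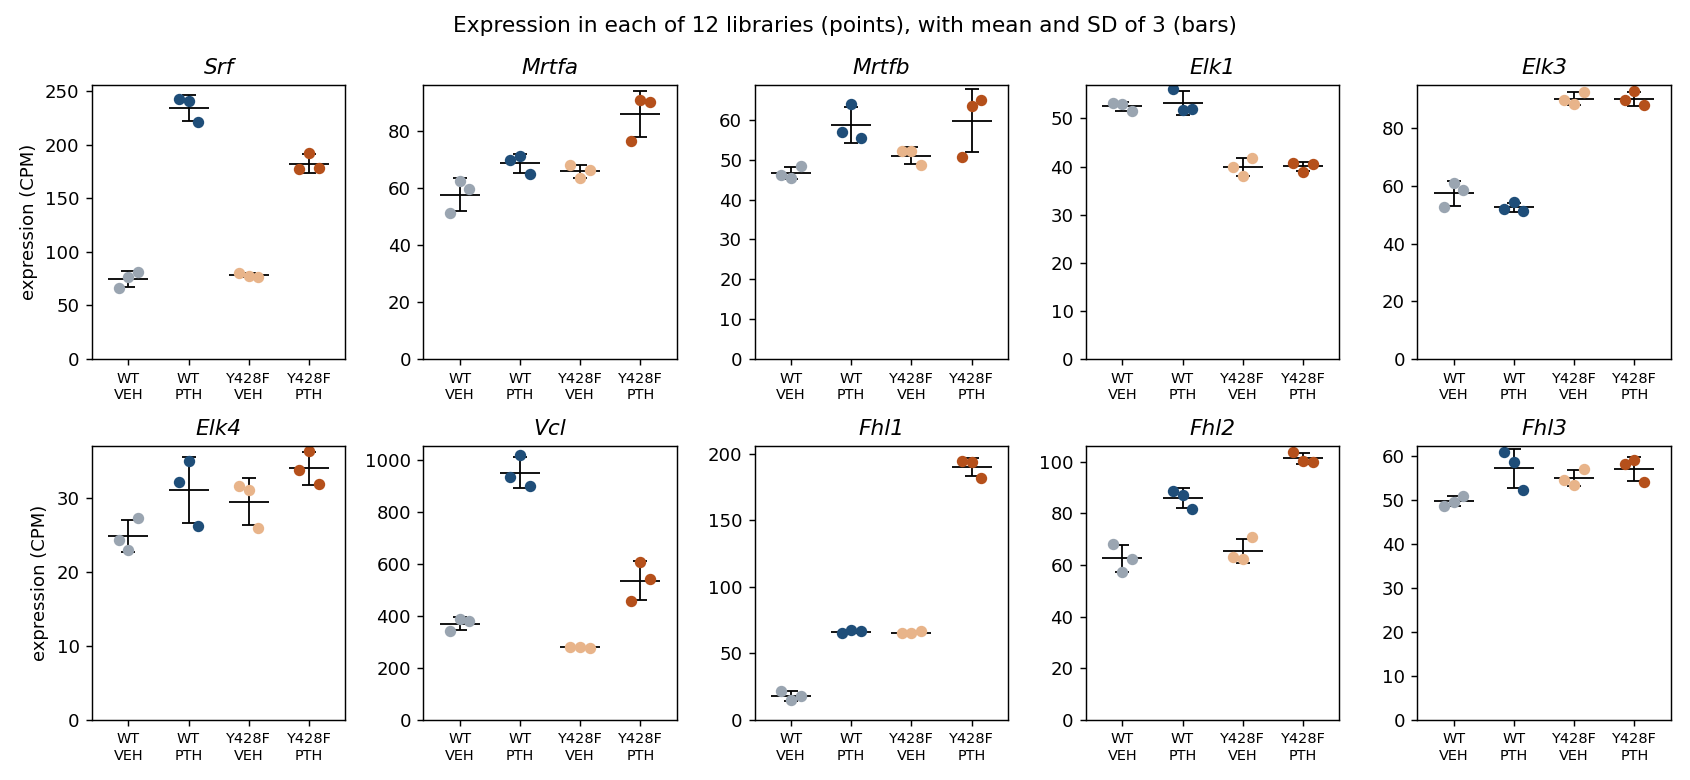
Expression (CPM, linear axis from 0) of the 10 genes in each of the 12 libraries, by group, with the mean and SD of 3 libraries. *Srf*, *Vcl*, *Fhl1* and *Fhl2* lie higher with PTH in every library of either line, whereas *Elk1* and *Elk3* follow the line and not the treatment.

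The 3 genes with the largest responses were also the only ones of the 10 with a CArG box in their promoter, which is why these promoters are shown. Promoters were read from GRCm39 as 250 bases before and 50 after the start of the canonical transcript, and the CArG box was searched on both strands as CC, any 6 of A or T, and GG. It was present in 335 of 21618 promoters of protein-coding genes (1.55%). Of the SRF target genes listed below, 6 of 34 MRTF-SRF targets (17.6%) and 3 of 20 ELK-SRF targets (15%) had it. As 28 of 33 MRTF-SRF targets tested rose with PTH in WT cells, most of those that rose had no box in this window. A link between the box and the response was not tested. The sequences below are the 250 bases before the start, 5′ to 3′ on the strand of the gene, with CArG boxes in capitals, from chr17:46867120-46867369 (minus strand) for *Srf*, chr14:20979216-20979465 (plus strand) for *Vcl* and chrX:55824833-55825082 (plus strand) for *Fhl1*.
Srf: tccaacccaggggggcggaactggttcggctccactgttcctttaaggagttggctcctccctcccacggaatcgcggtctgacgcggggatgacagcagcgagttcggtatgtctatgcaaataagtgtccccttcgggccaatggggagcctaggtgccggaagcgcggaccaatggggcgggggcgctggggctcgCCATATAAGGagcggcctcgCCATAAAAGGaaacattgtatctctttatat
Vcl: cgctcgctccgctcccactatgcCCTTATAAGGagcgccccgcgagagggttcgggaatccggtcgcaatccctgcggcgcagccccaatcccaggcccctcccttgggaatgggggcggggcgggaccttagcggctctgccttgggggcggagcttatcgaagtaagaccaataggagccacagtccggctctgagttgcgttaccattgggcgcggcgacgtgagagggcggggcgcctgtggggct
Fhl1: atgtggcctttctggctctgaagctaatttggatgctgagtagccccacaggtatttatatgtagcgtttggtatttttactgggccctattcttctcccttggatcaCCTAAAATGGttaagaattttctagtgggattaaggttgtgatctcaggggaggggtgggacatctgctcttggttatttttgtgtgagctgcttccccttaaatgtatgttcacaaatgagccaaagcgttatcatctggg
*Srf* held a pair of boxes, at -51 to -42 and -31 to -22 from the start, *Vcl* had its box at -227 to -218, and *Fhl1* at -142 to -133. The *Fhl1* start used here is that of the canonical transcript, which lies inside the gene (chrX:55777147-55838706), and other starts were not searched. The canonical start of *Mrtfa* (position 80989284), where no CArG box was found, also lies inside its gene. Other motifs were searched in the same way. The ETS core CCGGAA occurred in *Srf*, at -91 to -86, and in *Elk4* (16.9% of all promoters), GGAATG, the letters bound by TEAD factors, occurred in *Mrtfb* and in *Vcl* at -143 to -138 (14% of all promoters), and the cAMP response element TGACGTCA occurred in none of the 10 (2.44% of all promoters). The letters GGAA are common to the ETS core and GGAATG, so a sequence can match both. A match says only that these letters are present, and binding was not measured.

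*Srf* (ENSMUSG00000015605.7, chr17:46857767-46867119, GRCm39) was measured at 66.1, 76.1 and 80.8 CPM in the 3 WT libraries with vehicle and at 242.8, 240.3 and 220.8 CPM with PTH. In Y428F cells it was 80.1, 77.3 and 76.9 CPM with vehicle and 176.9, 192.4 and 178.1 CPM with PTH. Every PTH library lay above every vehicle library, and with PTH every Y428F library lay below every WT library, whereas the lines overlapped with vehicle. CPM here are counts as a share of each library's total, scaled by TMM, edgeR's normalization for library size.

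The log2 fold change of *Srf* with PTH was 1.67 ± 0.075 (SE, n = 3 per group; adjusted p = 2.25e-08) in WT cells and 1.22 ± 0.067 (adjusted p = 2.49e-10) in Y428F cells. Its response was smaller in Y428F cells by 0.44 on the log2 scale (95% confidence interval of the difference -0.63 to -0.24, adjusted p = 0.0456). This was the only call among the 10 genes for the difference in response, for which 0.170% of all genes tested were higher and 0.243% lower. The size held but the call did not: without one library in turn the difference ranged from -0.49 to -0.37, and the adjusted p exceeded 0.05 in 8 of 12 such fits, reaching 0.194 without the first WT library with PTH. The libraries that ended the call when left out were WT vehicle 2, WT PTH 1 and 2, Y428F vehicle 1, 2 and 3, and Y428F PTH 1 and 3. Between the lines *Srf* was lower in Y428F cells after PTH, with a log2 fold change of -0.36 (adjusted p = 9.44e-05), and the difference after vehicle was 0.07 (adjusted p = 0.429, 95% confidence interval -0.07 to 0.22).

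**Figure D2:**
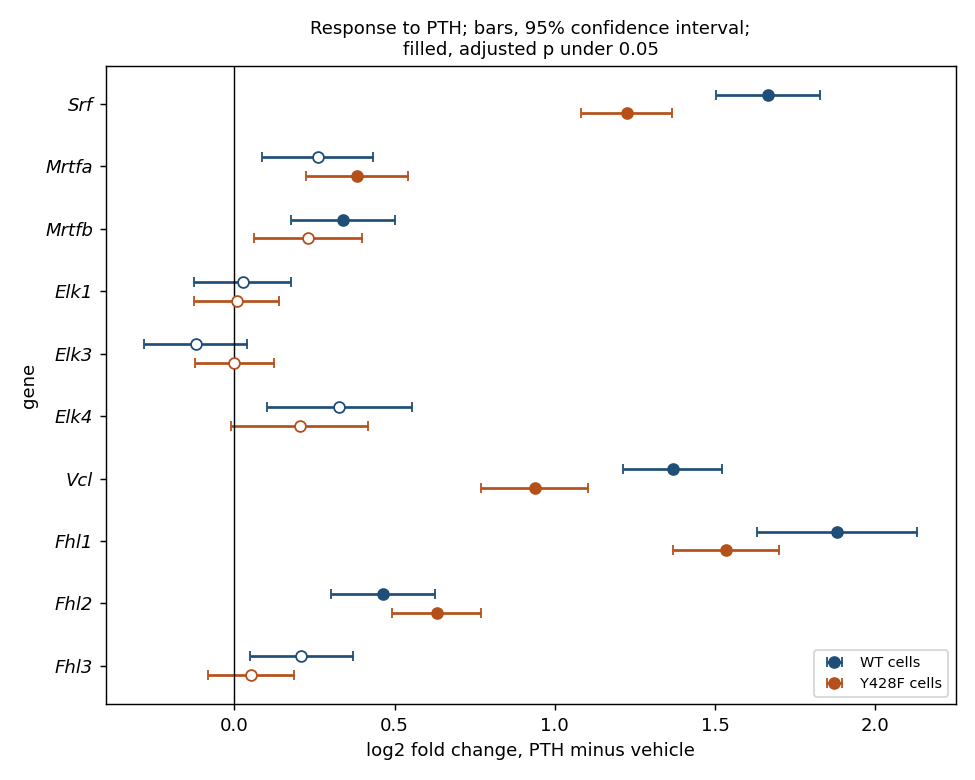
Log2 fold change with PTH of each of the 10 genes in WT cells and Y428F cells, with 95% confidence intervals and filled points at an adjusted p under 0.05. The intervals of the lines do not overlap for *Srf* or *Vcl*, those of *Elk1* include 0 in both lines, and the estimates of *Mrtfa* and *Fhl2* are larger in Y428F cells.

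*Mrtfa* and *Mrtfb* encode the actin-sensing coactivators. *Mrtfa* (chr15:80896482-81074969) was 51.1, 62.3 and 59.5 CPM with vehicle and 69.9, 71.2 and 64.9 CPM with PTH in WT cells. In Y428F cells it was 67.9, 63.4 and 66.1 CPM with vehicle and 76.4, 90.9 and 90.1 CPM with PTH. Groups did not overlap in either line, yet the WT log2 fold change of 0.26 just missed the threshold (adjusted p = 0.0525), and that of 0.38 in Y428F cells passed it (adjusted p = 0.00178). The WT change passed with DESeq2's Wald test (adjusted p = 0.0288) or size factors (0.0492), with no filter on low counts (0.0172), with at least 10 counts in every library (0.0390), and when WT vehicle 2 or WT PTH 3 was left out (0.0343 and 0.0495). The difference between the responses was 0.13 (95% confidence interval -0.10 to 0.36, adjusted p = 0.878). *Mrtfa* was also higher in Y428F than in WT cells, by 0.32 with PTH (adjusted p = 0.00153) and by 0.19 with vehicle (adjusted p = 0.0493), a call that was lost in 5 of 6 fits without a library, namely without WT vehicle 1 or 3 or any of the Y428F vehicle libraries.

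*Mrtfb* (chr16:13073858-13235394) was 46.1, 45.5 and 48.4 CPM with vehicle and 56.9, 63.8 and 55.5 CPM with PTH in WT cells, and 52.2, 52.2 and 48.5 CPM and 50.7, 63.5 and 65.1 CPM in Y428F cells. The WT groups stood apart and differed by a log2 fold change of 0.34 (adjusted p = 0.0107), which did not pass without WT PTH 2 (adjusted p = 0.0540). The Y428F groups overlapped because Y428F PTH 1 lay within the vehicle range, and the change there was 0.23 (adjusted p = 0.0733). Without Y428F PTH 1 that change was 0.34 (adjusted p = 0.00273), and with no filter on low counts it passed as well (0.0187). The same library was the lowest of its group for *Mrtfa*, *Vcl* and, by a small margin, *Srf*, and the highest for *Fhl1*, *Fhl2* and *Elk1*. Per kilobase of exon, the scale on which genes may be compared, *Mrtfa* made up 73.5% ± 2.05 (SD, n = 3) of the summed level of the pair in WT vehicle libraries and 72.6% ± 0.963 with PTH, and 74.5% ± 1.10 and 76.5% ± 0.760 in Y428F cells. *Myocd*, the muscle founder of the family, had 0 to 3 counts per library and was not tested.

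The ELK genes encode the other class of SRF partners. *Elk1* (chrX:20798091-20816852) was 53.3, 52.9 and 51.5 CPM with vehicle and 56.1, 51.7 and 52.0 CPM with PTH in WT cells, and 39.9, 38.1 and 41.7 CPM and 40.8, 39.0 and 40.4 CPM in Y428F cells. It overlapped between treatments in both lines, with log2 fold changes of 0.03 (95% confidence interval -0.13 to 0.18) and 0.01 (-0.13 to 0.14), and lay lower in every Y428F library than in any WT library of the same treatment. The difference between the lines was -0.40 with vehicle (adjusted p = 1.99e-05) and -0.41 with PTH (adjusted p = 1.44e-05).

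*Elk3* (chr10:93083276-93147056), which encodes the factor also called Net, went the other way between the lines. Its values were 52.7, 61.1 and 58.5 CPM with vehicle and 52.0, 54.4 and 51.2 CPM with PTH in WT cells, against 89.8, 88.5 and 92.8 CPM and 89.7, 93.0 and 88.2 CPM in Y428F cells. The lines did not overlap, and *Elk3* was higher in Y428F cells by a log2 fold change of 0.65 with vehicle (adjusted p = 1.51e-08) and 0.78 with PTH (adjusted p = 1.29e-09). With PTH it changed by -0.12 in WT cells (95% confidence interval -0.28 to 0.04) and by -0.00 in Y428F cells (-0.12 to 0.12). Per kilobase, *Elk3* held 52.0% ± 2.09 of the summed ELK level in WT cells with vehicle and 66.5% ± 0.707 in Y428F cells with vehicle, while *Elk1* held 36.9% ± 1.77 and 22.7% ± 0.652.

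*Elk4* (chr1:131935116-131960350), which encodes SAP1, was the lowest of the 10 genes per kilobase in every group. In WT cells its libraries spanned 22.9 to 27.3 CPM with vehicle and 26.1 to 34.9 CPM with PTH, and 25.9 to 31.5 CPM and 31.8 to 36.4 CPM in the Y428F line. Log2 fold changes with PTH were 0.33 in WT cells (adjusted p = 0.0606) and 0.20 in Y428F cells (adjusted p = 0.233), and the WT change passed the threshold without WT PTH 3 (adjusted p = 0.0104), with no filter on low counts (0.00653), with DESeq2's Wald test (0.0452) and with at least 10 counts in every library (0.0485). Between the lines *Elk4* differed by 0.25 with vehicle (adjusted p = 0.0600), which passed with library totals (0.0167), with no filter (0.0186), with at least 10 counts in every library (0.0430), and without WT vehicle 3 (0.0322) or Y428F vehicle 3 (0.0207). The *Elk4* exons share 5481 bases with those of *Mfsd4a* on the other strand. Exons of *Mrtfa*, *Mrtfb* and *Fhl2* also share bases with genes on the other strand. Whether the libraries keep the strand of the RNA is not given in the sources used here, so reads of such pairs cannot be told apart. *Mfsd4a* averaged 11.1 CPM with vehicle and 12.3 CPM with PTH in WT cells.

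*Vcl* (ENSMUSG00000021823.11, chr14:20979449-21083758) encodes vinculin, which couples integrin adhesions and cadherin junctions to actin and is a classical SRF target. It was measured at 342.1, 388.0 and 380.5 CPM with vehicle and 936, 1018 and 899 CPM with PTH in WT cells. In Y428F cells it was 281.2, 280.3 and 277.9 CPM with vehicle and 457, 608 and 542 CPM with PTH. None of the 4 groups overlapped another, and their order was WT PTH, Y428F PTH, WT vehicle, Y428F vehicle.

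The log2 fold change of *Vcl* with PTH was 1.37 ± 0.071 in WT cells (adjusted p = 6.05e-08) and 0.94 ± 0.080 in Y428F cells (adjusted p = 1.32e-07). It was lower in Y428F cells than in WT cells by -0.40 with vehicle (adjusted p = 0.000291) and -0.83 with PTH (adjusted p = 2.85e-08). The difference in response, -0.42 (95% confidence interval -0.66 to -0.19), was about as large as that of *Srf* but did not pass the threshold (adjusted p = 0.163). It passed with DESeq2's Wald test (adjusted p = 0.0359), with the replicate number as a block (0.0404), with no filter on low counts (0.000533), and without Y428F PTH 2 (0.0181). *Vcl* exons share 2104 bases with *Ap3m1* on the other strand, which averaged 87.5 CPM with vehicle and 83.4 CPM with PTH in WT cells, a log2 fold change of -0.06 (adjusted p = 0.670).

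*Fhl1* (ENSMUSG00000023092.17, chrX:55777147-55838706), the X-linked LIM gene best known from skeletal muscle, was measured at 21.8, 14.6 and 17.8 CPM with vehicle and 64.9, 67.5 and 66.6 CPM with PTH in WT cells. In Y428F cells it was 64.9, 65.1 and 66.8 CPM with vehicle and 194.6, 193.5 and 182.1 CPM with PTH. Y428F cells without PTH thus lay at the level of WT cells with PTH, and Y428F cells with PTH lay far above all other libraries. The log2 fold change with PTH was 1.88 ± 0.116 in WT cells (adjusted p = 3.29e-07) and 1.53 ± 0.079 in Y428F cells (adjusted p = 8.28e-11), and Y428F exceeded WT cells by 1.86 with vehicle (adjusted p = 8.92e-13) and 1.52 with PTH (adjusted p = 2.59e-12). The difference in response was -0.34 (95% confidence interval -0.59 to -0.09, adjusted p = 0.453), and -0.51 without WT vehicle 1, the highest of its group (adjusted p = 0.0179). Without WT vehicle 2, the lowest, it was -0.21 (adjusted p = 0.682).

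*Fhl2* (ENSMUSG00000008136.15, chr1:43162199-43236290) was 68.0, 57.4 and 62.2 CPM with vehicle and 88.8, 87.2 and 81.6 CPM with PTH in WT cells, and 63.1, 62.4 and 70.7 CPM and 103.9, 100.2 and 99.8 CPM in Y428F cells. All PTH libraries exceeded all vehicle libraries, and the lines overlapped with vehicle but not with PTH. The log2 fold changes with PTH were 0.46 (adjusted p = 0.00146) and 0.63 (adjusted p = 2.00e-06), and their difference was 0.18 (95% confidence interval -0.02 to 0.37, adjusted p = 0.779). With PTH *Fhl2* was higher in Y428F cells by 0.24 (adjusted p = 0.00518). *Fhl3* (chr4:124594172-124602419) ranged only from 48.8 to 61.0 CPM over the 12 libraries, with log2 fold changes of 0.21 in WT cells (adjusted p = 0.0925) and 0.05 in Y428F cells (adjusted p = 0.700); the WT change passed without WT PTH 3 (adjusted p = 0.0374). The difference of *Fhl3* between the lines with vehicle did not pass, but did with library totals (adjusted p = 0.0111) and with at least 10 counts in every library (0.0386).

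**Figure D3:**
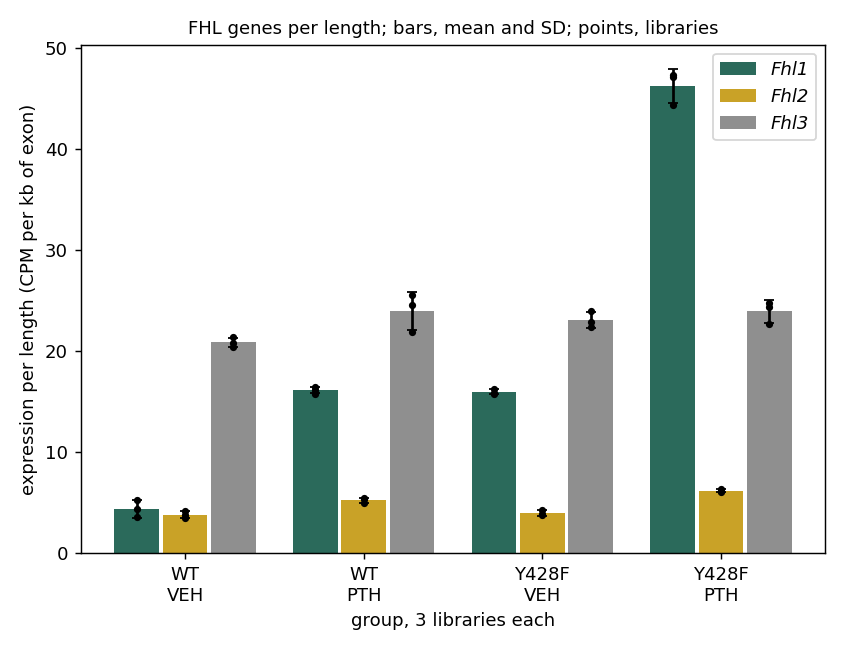
Level per length (CPM per kilobase of exon, linear axis from 0) of *Fhl1*, *Fhl2* and *Fhl3* in the 4 groups, as mean and SD of 3 libraries with the libraries as points. The group means of *Fhl3* stay between 20.9 and 24.0 while those of *Fhl1* go from 4.39 in WT vehicle to 46.2 in Y428F PTH libraries.

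Compared per kilobase, the 3 FHL genes changed their order. *Fhl1* made up 15.1% ± 2.53 (SD, n = 3) of their summed level in WT cells with vehicle, 35.6% ± 1.90 with PTH, 37.1% ± 0.584 in Y428F cells with vehicle and 60.6% ± 0.156 with PTH. The share of *Fhl3* was 71.8% ± 3.21 with vehicle and 52.8% ± 1.88 with PTH in WT cells, and 53.6% ± 0.319 and 31.3% ± 0.394 in Y428F cells, although its own level changed little. The length used for *Fhl2* matters: on the longest transcript in place of all annotated exons its share in WT vehicle libraries was 24.3% and not 13.1%, while that of *Fhl1* was 15.3%. Of other FHL and LIM-only genes in a list of 10, 5 were tested and 0 passed with PTH in either line, by edgeR, by DESeq2 or at an unadjusted p under 0.05. In a list this short that count is no result about these genes, as 6.88% of all genes rose and 4.91% fell in WT cells and 6.61% and 5.78% in Y428F cells. Between the lines 3 of the 5 (*Csrp2*, *Lmo4* and *Lmo7*) were higher in Y428F cells under either treatment, against 22.4% of all genes with vehicle and 22.8% with PTH. *Fhl5* was at 0 counts in all libraries, and *Fhl4* had 2 to 16 counts per library.

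In WT vehicle libraries the order of levels per kilobase was *Vcl* (43.3), *Fhl3* (20.9), *Srf* (16.8), *Elk3* (9.87), *Mrtfa* (8.96), *Elk1* (6.99), *Fhl1* (4.39), *Fhl2* (3.81), *Mrtfb* (3.21) and *Elk4* (2.11), in CPM per kilobase. The libraries of *Elk3* and *Mrtfa*, and those of *Fhl1* and *Fhl2*, overlapped, and other neighbours did not. In Y428F PTH libraries the order began with *Vcl* (62.7), *Fhl1* (46.2), *Srf* (41.3) and *Fhl3* (23.9), with no overlap among these. *Fhl1* thus moved from the seventh place to the second, where it also stood when the longest transcript was used as length.

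Between the lines, 5 of the 10 genes differed with vehicle, 3 higher in Y428F cells (*Mrtfa*, *Elk3*, *Fhl1*) and 2 lower (*Elk1*, *Vcl*). These shares are close to the background, since 22.4% of all genes tested were higher and 22.7% lower. With PTH, 4 were higher (the same 3 and *Fhl2*) and 3 lower (*Srf*, *Elk1*, *Vcl*), while 22.8% of all genes were higher and 23.0% lower. Chromosomes differed in their median between the lines: over genes that averaged 4 CPM or more the log2 difference with vehicle was 0.25 on chromosome 10, which carries *Elk3*, 0.20 on chromosome 15 (*Mrtfa*), 0.11 on the X chromosome (*Elk1*, *Fhl1*), 0.03 on chromosome 14 (*Vcl*) and -0.08 on chromosome 17 (*Srf*). *Yap1*, the gene of the introduced protein, was 180.6 to 193.9 CPM in WT vehicle and 230.4 to 246.2 CPM in WT PTH libraries, and 141.2 to 149.6 CPM and 168.5 to 173.8 CPM in Y428F cells. *Yap1* thus lay lower in every Y428F library than in any WT library of the same treatment, although that line was made to carry an introduced YAP. These reads do not separate cellular from introduced *YAP*, and so do not check the label.

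**Figure D4:**
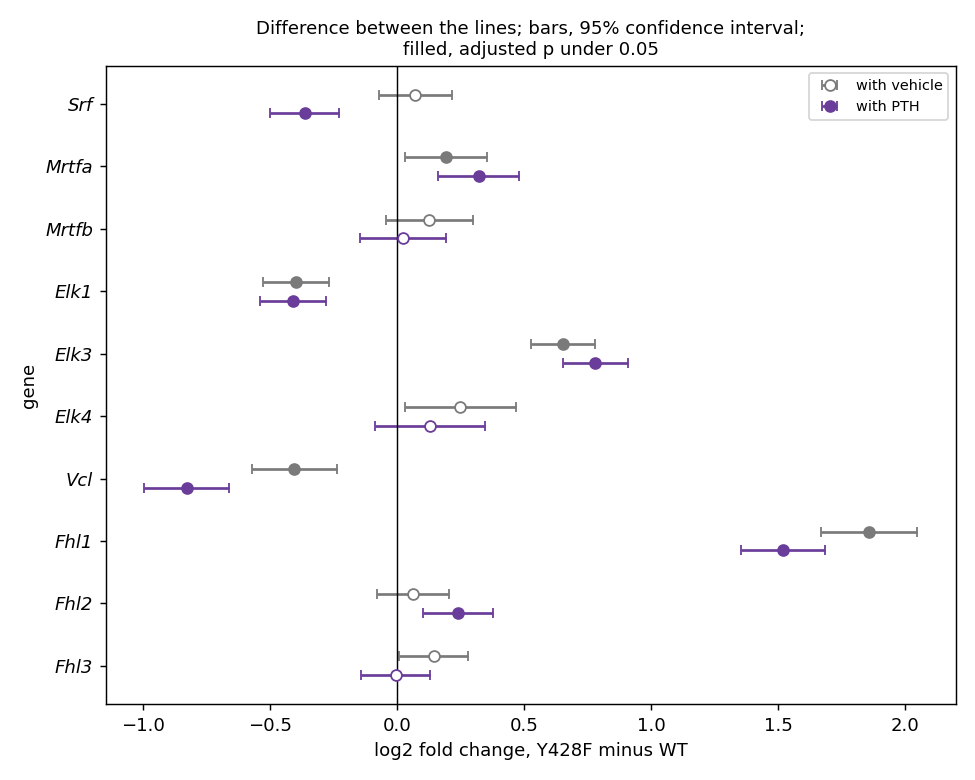
Log2 difference between Y428F and WT cells for each of the 10 genes, with vehicle and with PTH, with 95% confidence intervals and filled points at an adjusted p under 0.05. *Fhl1* and *Elk3* lie to the right (higher in Y428F cells) and *Elk1* and *Vcl* to the left under either treatment.

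Listed genes known to be served by MRTF and SRF mostly rose with PTH in both lines. This list, like those below, was written with earlier results of these data known. Its counts are therefore descriptions and no independent test. Of 34 such cytoskeletal genes, 33 were tested in WT cells, where 28 rose and 0 fell in edgeR's test (median log2 fold change 0.68, all genes -0.01), and in Y428F cells 22 of 34 rose and 0 fell (median 0.44, all genes -0.01). Of all genes, 6.88% rose and 4.91% fell in WT cells, and 6.61% and 5.78% in Y428F cells. At an unadjusted p under 0.05, 0 were lower in WT cells and 1 in Y428F cells, and 0 in either by DESeq2. Among list members averaging 2 CPM or more, large WT changes were those of *Pdlim5* (a PDZ and LIM adaptor of the Z-line, 2.57), *Acta2* (smooth muscle actin, 2.19) and *Cnn1* (calponin, 2.03). In Y428F cells these changed by 1.80, 1.17 and 0.70. *Acta1* (skeletal actin, 4.03 and 2.32) met that minimum only through its PTH libraries, with 3 to 8 counts per library in WT cells with vehicle and 80 to 99 with PTH. The muscle regulators *Myog* and *Myod1* were at 0 counts in all 12 libraries.

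The response of 11 of these 34 genes differed between the lines, all 11 being weaker in Y428F cells (median over the list -0.32, all genes 0.00), where the difference was called negative for 0.243% of all genes and positive for 0.170%. The 11 were the actins *Acta2*, *Actb* and *Actg1*, the actin-binding genes *Cnn1*, *Tagln* and *Tpm1*, the myosin light chain gene *Myl9*, the adhesion and LIM genes *Tgfb1i1*, *Pdlim5* and *Pdlim7*, and the integrin gene *Itga5*. *Acta2* averaged 106.8 ± 15.8 CPM (SD, n = 3) with vehicle and 487 ± 6.10 CPM with PTH in the WT line, and 129.3 ± 7.49 and 290.1 ± 17.1 CPM in the Y428F line, a difference in response of -1.02 (adjusted p = 7.34e-05). *Cnn1* averaged 9.65 ± 1.25 and 39.4 ± 2.00 CPM in the former and 8.31 ± 1.21 and 13.4 ± 1.01 CPM in the latter, a difference of -1.33 (adjusted p = 0.000222). *Actb* behaved otherwise: its vehicle level was 2360.1 ± 177 CPM in the WT and 3153 ± 62.2 CPM in the Y428F line, and its PTH level 4271 ± 279 and 4015 ± 127 CPM, where the lines did not differ by the test (adjusted p = 0.268). *Ccn2*, a target shared with YAP, rose by 1.99 in WT and 2.04 in Y428F cells (difference 0.06, adjusted p = 0.984). Without one library in turn, 6 to 12 genes were called, fewest without WT PTH 1 or Y428F PTH 3. Compared directly between the lines with vehicle, 15 of the 34 were higher and 8 lower in Y428F cells, and with PTH 5 were higher and 18 lower, against 22.4% and 22.7%, then 22.8% and 23.0%, of all genes.

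Immediate early genes served by ELK and SRF gave a mixed picture. Of 19 tested among 20, 7 rose and 2 fell in WT cells (median 0.20), and 10 rose and 1 fell in Y428F cells (median 0.39), beside 6.88% and 4.91% of all genes in WT and 6.61% and 5.78% in Y428F cells. The WT count of 9 was 5 without WT PTH 1 or WT PTH 2. In WT cells *Dusp5*, a phosphatase of ERK, rose by 1.21, *Maff* by 0.85 and *Fosl1*, which encodes the AP-1 member FRA1, by 0.78, and *Btg2*, an antiproliferative gene, fell by 1.12 on the log2 scale, against changes of 1.31, 1.60, 0.99 and -1.15 in Y428F cells. *Fos* was low, at 15 to 29 counts per library, and did not pass in either line (0.19, adjusted p = 0.767, and -0.12, adjusted p = 0.883). All libraries were taken at 2 hours, so changes of these genes before that time were not measured. The response differed between the lines for 4 genes, each of them higher in Y428F cells (0.170% of all genes): *Junb* (0.69), *Egr2* (1.89), *Ier3* (0.91) and *Maff* (0.75). The vehicle level of *Egr2* was 3.92 ± 1.54 CPM in the WT and 0.675 ± 0.084 CPM in the Y428F line, and its PTH level 5.16 ± 0.854 and 3.34 ± 0.340 CPM. This count rested on single libraries, since 1 to 5 genes were called when one was left out, and 1 or 2 without WT vehicle 2 or 3, WT PTH 2, any Y428F vehicle library or Y428F PTH 3.

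**Figure D5:**
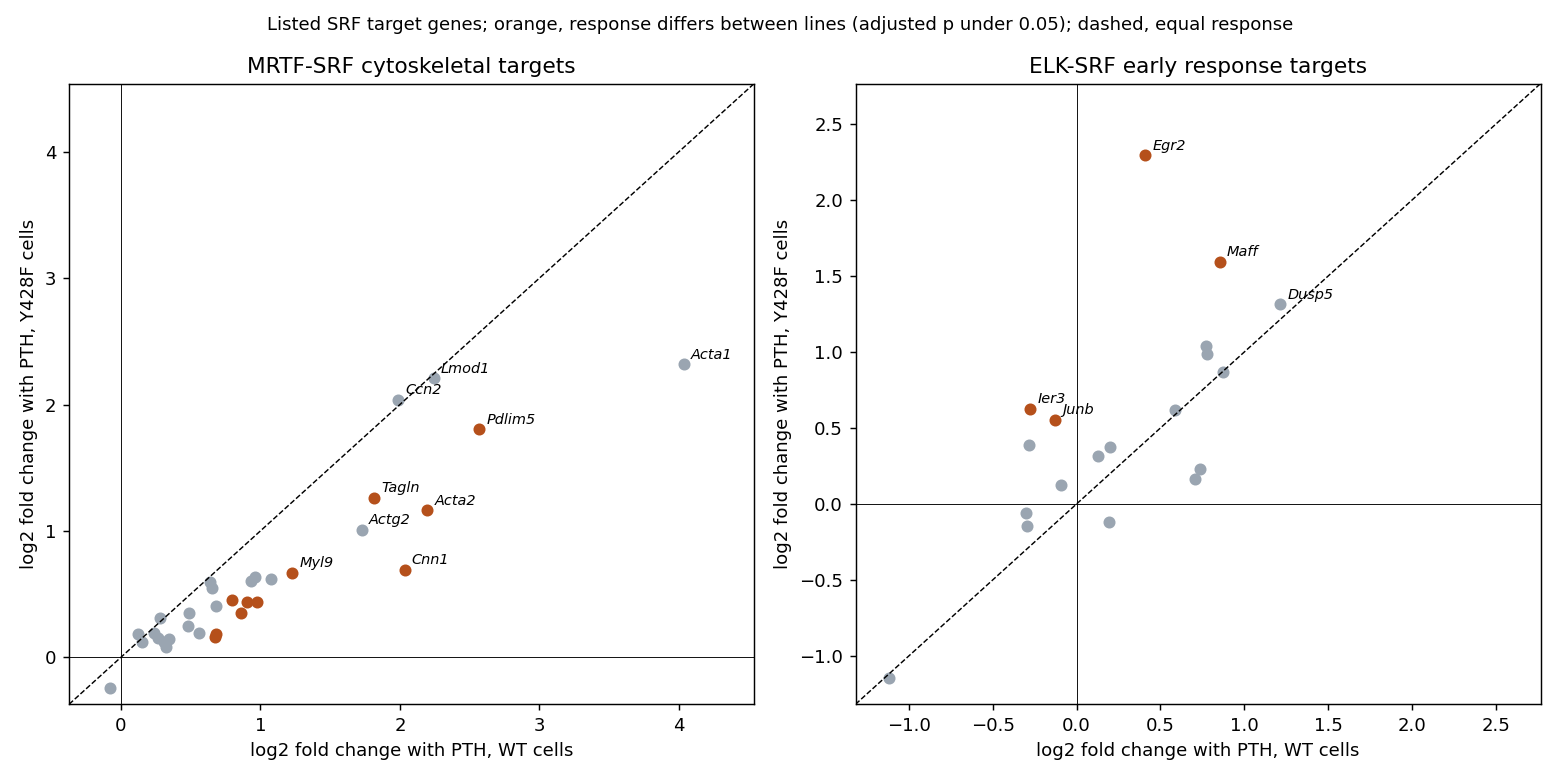
Log2 fold change with PTH in WT cells (horizontal axis) and in Y428F cells (vertical axis) of the listed MRTF-SRF and ELK-SRF target genes, each point a gene. Orange points, whose response differs between the lines, lie below the dashed line of equal response among the MRTF-SRF targets (11 genes) and above it among the ELK-SRF targets (4 genes).

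Of 20 vinculin partners at adhesions, 8 rose and 1 fell in WT cells, against 6.88% and 4.91% of all genes, and 5 rose and 1 fell in Y428F cells, against 6.61% and 5.78%. The WT count of 9 was 4 without WT PTH 1. *Fermt2* (kindlin-2) rose by 0.79 and 0.42, and its response differed between the lines (-0.37, adjusted p = 0.0289). No partner was called for that difference in 9 of 12 fits without a library, namely all but those without WT vehicle 1, WT PTH 3 or Y428F PTH 2. *Lims1* (PINCH) rose by 0.47 and 0.35, *Actn1* (alpha-actinin) by 0.43 and 0.33, and *Fblim1* rose by 0.33 in WT cells and was 0.03 in Y428F cells (adjusted p = 0.830).

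By pattern over the 12 libraries, the genes most like *Srf* among 9104 that averaged 10 CPM or more were *Pdlim5* (Pearson r = 0.996 on log2 CPM), *Mbnl1* (0.991) and *Wdr1* (0.989). Those most like *Vcl* were *Lima1* (0.986), *Cald1* (0.982) and *Fermt2* (0.982). For *Fhl1* they were *Lims1* (0.991), *Abce1* (0.991) and *Tnfrsf11b* (0.991), and for *Fhl2* they were *Epb41l4a* (0.975), *Pim1* (0.971) and *Coq10b* (0.968). These are descriptions, since the 12 points fall into 4 groups and share their libraries.

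Stromal marker transcripts were present in all libraries, though not all markers were. The summed level of 12 BMSC markers was 21862 ± 1801 CPM in WT vehicle, 21475 ± 1576 in WT PTH, 14225 ± 583 in Y428F vehicle and 11927 ± 1417 in Y428F PTH libraries, most of it from *Col1a2* and *Col1a1*. *Thy1* was at 0 in all 12, *Nt5e* had 0 to 2 counts and *Alpl* 0 to 7 counts per library, and *Lepr* had 1 to 5 counts in WT and 9 to 21 in Y428F libraries. Of the 10 markers tested, 8 were lower and 1 higher in Y428F cells with vehicle, where 22.7% of all genes were lower and 22.4% higher, *Pdgfra* by -1.59 (adjusted p = 2.22e-11), and *Pdgfra* fell with PTH in both lines, by 0.59 and 0.73 on the log2 scale. Summed haematopoietic markers were 2.01 to 7.76 CPM and endothelial markers 1.05 to 8.91 CPM as group means, with the larger ones in the Y428F line, where 2 of 6 and 1 of 4 markers tested were higher with vehicle, shares that are near the 22.4% of all genes. *Ptprc* and *Cdh5* were the most abundant. Summed muscle markers were 141.5 ± 8.48, 142.3 ± 5.24, 114.4 ± 5.09 and 106.0 ± 2.17 CPM in the same order of groups, most of it from *Smtn*. Of 5 muscle markers tested, *Smtn* was lower and *Des* and *Ttn* were higher in Y428F cells under either treatment, with a list median of 0.90 on the log2 scale with vehicle and 0.79 with PTH. With so few genes these counts are near the shares of all genes, 22.4% higher and 22.7% lower with vehicle and 22.8% and 23.0% with PTH. The part of these marker shifts in the differences between the lines was not tested. As each library is bulk RNA, fewer cells with a transcript and less of it per cell cannot be told apart.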

How the data were processed

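Per the labels and methods, the authors mapped reads with STAR 2.7.10b to GRCm39 with the GENCODE vM31 basic annotation and deposited RSEM expected counts, scaled for neither depth nor length. Groups were taken from library titles. Rounded to whole numbers, they entered edgeR 4.0.16 under R 4.3.3 (TMM, a minimum of 10 counts summed over libraries, quasi-likelihood test, Benjamini-Hochberg adjustment over all genes tested). The response of WT cells was fitted on the 6 WT libraries (15583 genes) and other comparisons on all 12 (17691 genes). Log2 fold changes carry a standard error of their size over the root of F. Positions, exon lengths and promoters came from GRCm39 with GENCODE vM39, which matched 56236 identifiers. Chi-square over its degrees of freedom was 2.94 to 15.2 between replicates, above sampling noise, so none was merged. The members, gene lists and tests were chosen with earlier results of these data known. Named list genes were the 4 with the largest PTH change in WT cells (adjusted p under 0.05, mean of at least 2 CPM), and all with a different response. *Ccn2*, *Fos*, *Myocd*, *Myog*, *Myod1*, *Fhl4*, *Fhl5*, *Csrp2*, *Lmo4*, *Lmo7* and the cell type markers were named after their values were seen. Alternatives were DESeq2 1.42.0, other scalings, filters, lengths and limits, a replicate block, and each library left out. 1 listed gene group is not reported here. The fits were tested on simulated data.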

Additional observations from a re-analysis of the deposited data

Results flagged for a closer look

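*Srf* had a different response in the 2 lines, the interaction being -0.44 on the log2 scale by edgeR (adjusted p = 0.0456). Its mean with vehicle was 74.3 CPM in the WT and 78.1 CPM in the Y428F line, and with PTH 234.6 and 182.4 CPM, with every Y428F library of the latter group below every WT one. The call was lost in 8 of 12 fits without a library.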

How the results depend on the processing

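The calls of *Srf*, *Vcl*, *Fhl1* and *Fhl2* with PTH in either line, and of *Elk1*, *Elk3*, *Vcl* and *Fhl1* between the lines, held under each alternative tried on single genes and without each library. In WT cells PTH changed 5 of the 10, 8 with all 12 libraries in the fit, and 4 to 8 without one library (8 without WT PTH 3). For the difference in response 1 was called, 2 with DESeq2's Wald test, with no filter on low counts and with the replicate block, 0 under the stricter limits (0.01 for the adjusted p, 0.3 for the log2 fold change), and 0 to 2 without one library. For the alternatives and the fits without a library, no share of all genes called is given, so these counts have no background. The cause of these shifts in count was not tested. Changes near 0, none of them called, turned their sign. With library totals in place of TMM these were *Elk1* with PTH in WT (-0.033) and in Y428F cells (-0.034) and *Fhl3* between the lines with PTH (0.064). *Elk3* with PTH in Y428F cells was 0.00024 by DESeq2, 0.00022 with its size factors and 0.0061 with no filter, and *Fhl3* between the lines with PTH was 0.0026, 0.0026 and 0.0025 in the same order and 0.011 with at least 10 counts in every library. Without one library *Elk1* ranged from -0.000050 to 0.058 with PTH in WT cells, from -0.028 to 0.041 in Y428F cells and from -0.055 to 0.034 for the difference, *Elk3* in Y428F cells from -0.022 to 0.020, *Srf* and *Fhl2* between the lines with vehicle from -0.0084 to 0.14 and from -0.0014 to 0.13, and *Mrtfb* and *Fhl3* between the lines with PTH from -0.051 to 0.12 and from -0.066 to 0.051.

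Under the stricter limits the counts of listed ELK-SRF targets and vinculin partners called with PTH in WT cells went from 9 to 5 and from 9 to 4, and differences in response from 11 to 6 for MRTF-SRF targets, 4 to 1 for ELK-SRF targets and 1 to 0 for vinculin partners. Between the lines they went from 23 (15 higher in Y428F cells) to 15 (8 higher; MRTF-SRF targets) and, for vinculin partners, from 11 (4 higher) to 6 (4 higher) with vehicle and from 12 (5 higher) to 7 (2 higher) with PTH. Of all calls with PTH, 58.4% in WT and 53.4% in Y428F cells were higher, and 38.0% and 38.1% with library totals. Whether replicate numbers pair the libraries cannot be told from these values. The correlation of same-numbered deviations ranged from -0.22 to 0.39 over 18 pairs, 4 of them over 0.1. Its mean was 0.035, against -0.017 for pairs with different numbers. The block added *Vcl* to the differences in response and *Elk4* to those between the lines with vehicle (0.24, adjusted p = 0.0492 by edgeR). With 3 libraries a group, *Acta1*, *Egr2* and *Fos* rest on few counts.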
